A study of Mus musculus with 3 samples.

Results

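The MHC class II genes and Ciita, their master regulator, were followed in mouse multipotent progenitors (MPPs) labelled Mef2c-deficient and in control MPPs. The group held 10 genes of the 22213 tested: the classical chains H2-Aa, H2-Ab1 and H2-Eb1, the invariant chain Cd74, the coactivator Ciita, the peptide exchange chains H2-DMa, H2-DMb1 and H2-DMb2, and their inhibitor chains H2-Oa and H2-Ob. Members were taken by the gene name of each array probe, where Ciita carried its older name C2ta. This gave 16 of the 41174 probes, 1 probe each for 6 genes and several for H2-Aa, H2-Ab1, H2-DMb2 and H2-Oa. All 10 genes passed the filter on dim probes, and all 16 probes were well above background in all 6 libraries.

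Each of 3 2-colour arrays compared 1 Mef2c-deficient library, from mice with Mx1-Cre and floxed Mef2c alleles, with 1 control library from mice with the floxed alleles and no Cre. All mice received 250 µg poly(I:C) on 4 consecutive days, and marrow was taken 2 days after the last injection. Poly(I:C) induces interferon, which turns on the Mx1 promoter that drives Cre, and interferon is also a known inducer of MHC genes, so both groups shared that exposure. Each library came from 15000 bone marrow cells sorted as negative for lineage antibodies (against CD3, B220, Mac-1, Gr-1 and Ter119) and positive for c-kit and Sca-1. Strain, age and sex are not given in the sources used here, and an effect of Cre alone cannot be told apart from loss of Mef2c.

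The labels do not say whether replicates came from separate mice, so p-values measure the spread between these libraries, which may be technical. As labelled, Cy3 marked the mutant and Cy5 the control on every array, so a dye effect and genotype cannot be told apart. In the deposited ratios, array 2 has the opposite sign to arrays 1 and 3. If array 2 was in truth a dye swap, its signs below are wrong, and values with the sign of that array turned are given with the results. In each library 73.4% to 80.3% of probes passed the scanner's test for a signal well above background, and no spot was saturated. Kit and Ly6a, the genes of c-kit and Sca-1, were well above background in all 6 libraries. So were Flt3, Cd34, Cd48, Slamf1 and Ptprc, progenitor markers outside the positive gate. At an unadjusted p under 0.05 by limma, Ly6a (mean log2 ratio 0.82 ± 0.27 SD) and Slamf1 (1.16 ± 1.05) were higher in the mutant. Flt3 (-1.15 ± 0.12) was lower. Of all genes, 4.81% were higher and 5.32% lower. With array 2 turned, 0 of the 7 were past that threshold. On arrays 1, 2 and 3 the Mef2c probe itself gave log2 ratios of 0.08, 0.10 and -0.96 (mean -0.26 ± 0.61 SD, unadjusted p = 0.408 by limma), so its probe did not verify the deletion.

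MHC class II molecules show peptides from engulfed or membrane material to CD4 T cells, and dendritic cells, B cells and macrophages are their main sites of expression. An alpha and a beta chain pair in the endoplasmic reticulum, and Cd74 fills their groove and directs them to endosomes, where it is cut down to a short peptide called CLIP. H2-DM exchanges CLIP for other peptides, and H2-O binds H2-DM and inhibits it. Ciita does not bind DNA by itself: it is recruited to class II promoters by RFX bound at the X box and NF-Y bound at the Y box.

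Promoter sequence was available for 7 of the 10 genes, and the stretches that hold both boxes are shown because Ciita acts through this pair. H2-Ab1, Ciita and Cd74 are named only. The sequences come from RefSeq windows of GRCm38.p6 that run from 250 bases before to 50 bases after a gene start. The search asked for CTAGCAAC with up to 2 mismatches as the X box core, followed 20 to 45 bases later on the same strand by ATTGG as the Y box core, with both strands searched and no overlap between the motifs. These settings were chosen with the sequences in view. A pair was found in 6 of 8 windows of these genes, and in 4.25% of the 32851 windows of all genes. Each stretch is printed 5′ to 3′ along the gene's strand, with both cores in capitals.
H2-Aa (chr17:34287855-34287919, minus strand): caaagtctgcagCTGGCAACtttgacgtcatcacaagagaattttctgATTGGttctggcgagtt
H2-Eb1 (chr17:34305761-34305824, plus strand): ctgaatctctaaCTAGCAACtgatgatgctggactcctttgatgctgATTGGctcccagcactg
H2-DMb1 (chr17:34153082-34153146, plus strand): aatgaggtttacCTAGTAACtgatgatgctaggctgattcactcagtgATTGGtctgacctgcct
H2-DMb2 (chr17:34145111-34145175, plus strand): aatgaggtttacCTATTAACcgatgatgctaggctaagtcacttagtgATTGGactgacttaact
H2-Oa (chr17:34092288-34092352, plus strand): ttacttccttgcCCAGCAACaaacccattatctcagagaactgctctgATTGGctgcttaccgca
H2-Ob (chr17:34238803-34238864, plus strand): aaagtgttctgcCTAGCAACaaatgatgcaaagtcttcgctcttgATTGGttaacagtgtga

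The X box core matched without a mismatch in H2-Ob and H2-Eb1, with 1 mismatch in H2-Aa, H2-DMb1 and H2-Oa, and with 2 in H2-DMb2. It began 79 to 126 bases before the gene start, and the Y box core began 43 to 90 bases before it. The distance between the starts of the 2 cores was 36 bases in H2-Aa, H2-DMb1, H2-DMb2 and H2-Oa, 35 in H2-Eb1 and 33 in H2-Ob. H2-DMa had 2 windows and neither held the pair, which says only that these letters are not in those windows. Alone, the cores were common: the Y box core lay in 37.4% of all windows on either strand and the X box core with up to 2 mismatches in 86.5%. A MEF2 site, given here by name alone, lay in 0 of the 8 windows and in 3.19% of all windows. The binding of any factor was not measured.

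Across the group, the ratio of Mef2c-deficient over control was slightly below 0 for most genes, and H2-Ob and Cd74 stood furthest below. The mean log2 ratio over 3 arrays was below 0 for 8 of the 10 genes, where 54.6% of all 22213 genes were below 0. The means ran from -1.56 for H2-Ob to 0.15 for H2-DMb1. Their median was -0.17, against -0.04 for all genes. By array, the members' median was -0.37, -0.42 and -0.02 on arrays 1, 2 and 3, and all genes had medians of -0.07, -0.05 and 0.00. With array 2 turned, 5 of the 10 genes were below 0, against 51.7% of all genes, and the median was 0.01, against -0.01 for all genes. Without array 2 the median was -0.04 for the members and -0.04 for all genes.

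None of the 10 genes passed the test over all genes. By limma, 0 of the 22213 genes (0%) had an adjusted p under 0.05, and the members' adjusted p ranged from 0.461 to 0.990. At an unadjusted p under 0.05, H2-Ob and Cd74 were lower in the mutant, 2 of 10 against 5.32% of all genes, and 0 of 10 were higher, against 4.81% of all genes. Ratios were below 0 on all 3 arrays for Cd74, Ciita and H2-Ob, 3 of 10 genes against 20.3% of all genes. After turning array 2, 0 of the 10 were below 0 on all 3 arrays (9.46% of all genes), and 0 of the 10 were at an unadjusted p under 0.05 (1.39% of all genes lower, 1.51% higher). Without array 1 only H2-Ob was, and without array 3 H2-Ab1 joined H2-Ob and Cd74 (unadjusted p = 0.0341 for H2-Ab1, limma).

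**Figure D1:**
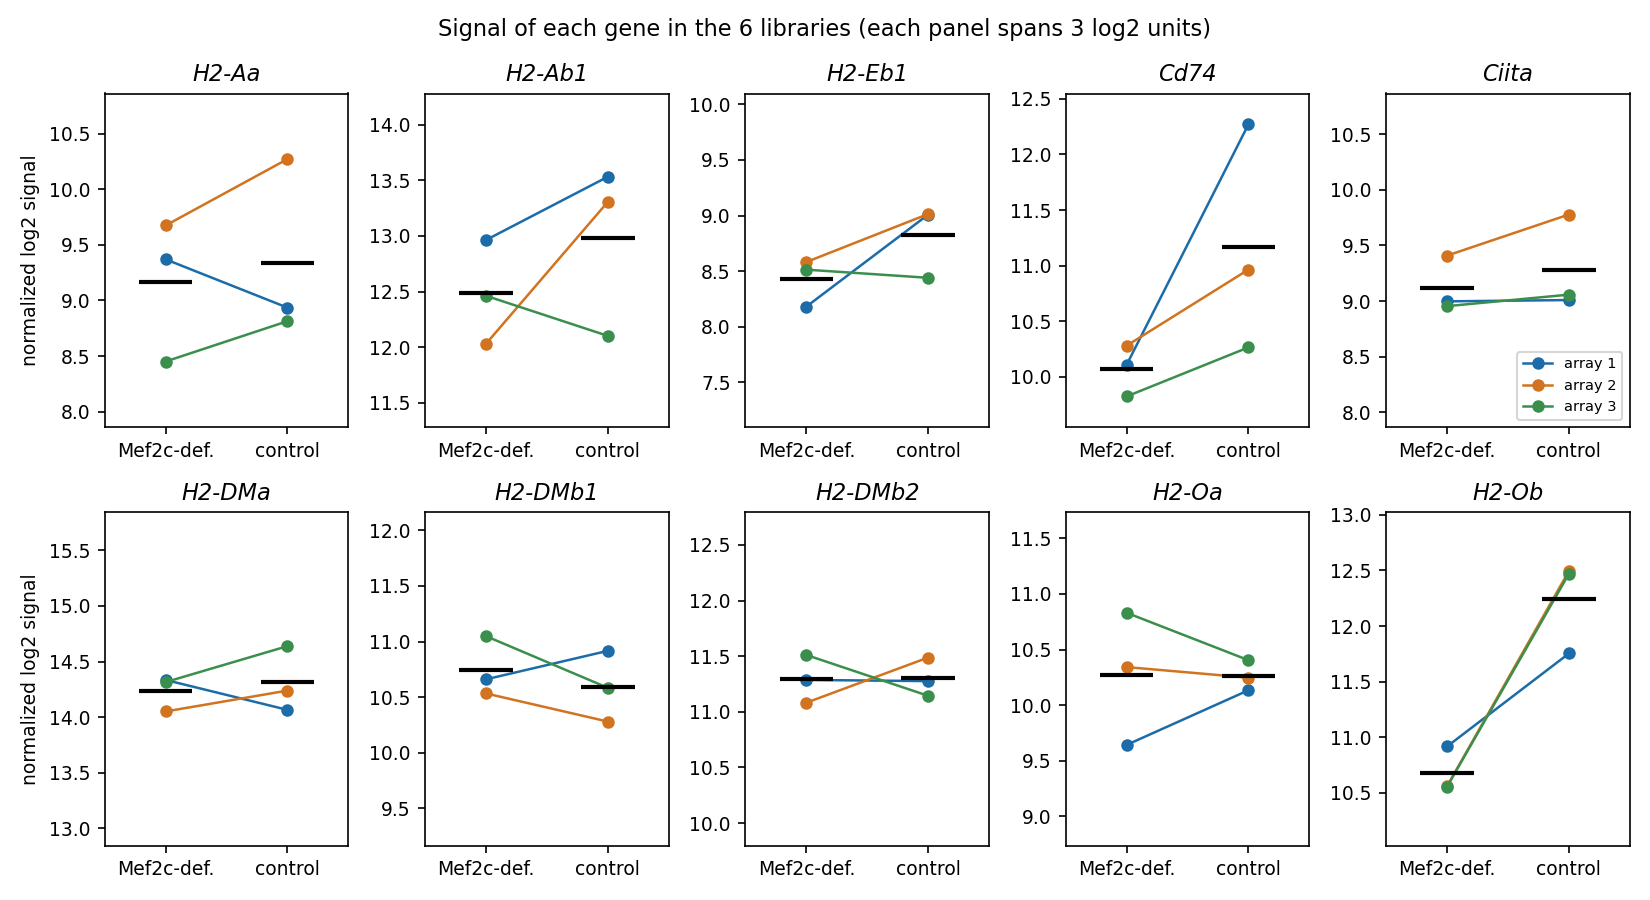
Normalized log2 signal of the tested probe of each of the 10 genes (vertical axis) in the Mef2c-deficient libraries (left of each panel) and the control libraries (right), with a line joining the 2 libraries of an array and black bars at the group means, n = 3 libraries each. H2-Ob is the panel where all 3 Mef2c-deficient libraries (10.56 to 10.92) lie under all 3 control libraries (11.75 to 12.49), and in the Cd74 panel the control library of array 1, at 12.27, stands above the other controls.

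H2-Ob, the beta chain of the H2-DM inhibitor H2-O, had normalized log2 signals of 10.92, 10.56 and 10.56 in Mef2c-deficient libraries 1, 2 and 3. The control libraries had 11.75, 12.49 and 12.47. All Mef2c-deficient libraries were below all controls, with a gap of 0.84 between the lowest control and the highest mutant library. H2-Ob was the only one of the 10 genes whose groups did not overlap, where 11.8% of all genes measured on 3 arrays had every mutant library below every control. Arrays 1, 2 and 3 gave log2 ratios of -0.84, -1.94 and -1.91 (mean -1.56 ± 0.63 SD, n = 3). That mean corresponds to a signal 2.95 times higher in controls, with a moderated 95% interval of the log2 ratio from -2.28 to -0.84. The unadjusted p by limma was 0.00193 and the adjusted p was 0.461.

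The H2-Ob ratio rested on 1 probe. Leaving out 1 array at a time kept its mean between -1.92 and -1.37. Under a turned array 2, the mean was -0.27 (unadjusted p = 0.711, limma) and the groups overlapped. The signals came from bulk cells, so fewer cells with H2-Ob transcript and less transcript per cell cannot be told apart, and this holds for every gene below.

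H2-Oa, the alpha chain that pairs with H2-Ob, did not show that gap. Its tested probe had log2 signals of 9.64, 10.34 and 10.83 in Mef2c-deficient libraries and 10.13, 10.25 and 10.40 in controls. The mutant libraries lay on both sides of the controls. Its mean log2 ratio was 0.01 ± 0.46 (SD, n = 3; adjusted p = 0.990 by limma), with a 95% interval from -0.62 to 0.64. Once array 2 was turned, the mean was -0.053, and without array 3 it was -0.20. A second H2-Oa probe gave -0.42, -0.19 and -0.01 on the 3 arrays (mean -0.21 ± 0.21). The log2 ratio of H2-Ob minus that of H2-Oa was -0.34, -2.03 and -2.34 on arrays 1, 2 and 3 (mean -1.57 ± 1.07), a difference that was not tested. The 2 chains thus lay apart on arrays 2 and 3 and close together on array 1.

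Cd74, the invariant chain, had log2 signals of 10.11, 10.28 and 9.82 in Mef2c-deficient libraries. The control libraries had 12.27, 10.96 and 10.26. The mutant libraries lay within 0.46 of each other and the controls spanned 2.01, because control library 1 was 1.66 above the mean of the other controls. The lowest control was 0.02 below the highest mutant library, so the groups touched. The log2 ratios were -2.16, -0.68 and -0.44, below 0 on each array, and their mean was -1.10 ± 0.93 (SD, n = 3; 95% interval -2.02 to -0.17). The unadjusted p by limma was 0.0271 and the adjusted p was 0.468. Without array 1 the mean was -0.56 (unadjusted p = 0.0883, limma), and with array 2 turned it was -0.64 (unadjusted p = 0.273, limma).

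Control library 1, where Cd74 was highest, also stood apart for other gene lists. The 11 measured of 12 immediate early and stress genes had a mean log2 signal of 10.36, 11.49 and 10.75 in the Mef2c-deficient libraries, against 15.01, 11.82 and 10.81 in the controls. The 12 measured of 13 neutrophil markers had 10.97, 11.13 and 10.49 in the Mef2c-deficient libraries and 12.99, 10.74 and 11.01 in the controls. H2-Ob did not share this pattern, since its control library 1 was 0.73 below the mean of the other controls. Nor did the neutrophil markers Elane and Prtn3, at 15.27 and 14.41 in control library 1 and 15.51 and 14.66 in control library 3. Their mean log2 ratios were 0.91 and 1.03 (0.003 and 0.19 with array 2 turned). Of the 12 neutrophil markers, 8 had a mean below 0, against 54.6% of all genes, and the list median was -1.05. At an unadjusted p under 0.05 by limma, 3 of the 12 were lower, where 5.32% of all genes were. Elane and Prtn3 were the 2 that were higher, where 4.81% of all genes were. With array 2 turned, 4 of the 12 were lower and 0 higher (1.39% and 1.51% of all genes), and the list median was -0.72. The part of these lists in the Cd74 ratio was not tested.

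Over the 6 libraries, the signals of H2-Eb1 (Pearson r = 0.790) and H2-Ab1 (0.739) ran most like that of Cd74 among the members. The correlation with Cd74 was 0.442 for H2-Ob, 0.143 for H2-Aa, 0.111 for Ciita and 0.04 for H2-DMb1. It was below 0 for H2-DMb2 (-0.01), H2-Oa (-0.25) and H2-DMa (-0.49). Among 19489 other genes well above background in every library, the highest values were 0.995 for Defa22, 0.994 for A330033J07Rik, Smyd4 and Cnga2, and 0.993 for Paqr4. These are descriptions over 6 libraries that share arrays in pairs, and control library 1 is the highest library of Cd74 and of all 5 of these genes.

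The classical chains gave no common step between the groups. H2-Ab1, the beta chain of H2-A, had log2 signals of 12.96, 12.03 and 12.46 in Mef2c-deficient libraries and 13.53, 13.30 and 12.10 in controls by its tested probe. Mutant was below control on arrays 1 and 2 and above it on array 3. The log2 ratios were -0.57, -1.28 and 0.36, with a mean of -0.49 ± 0.82 (SD, n = 3; adjusted p = 0.602 by limma). H2-Aa, the alpha chain of H2-A, had 9.37, 9.67 and 8.45 in Mef2c-deficient libraries and 8.94, 10.27 and 8.81 in controls. It was above control on array 1 and below it on the other arrays, and its mean log2 ratio was -0.17 ± 0.54 (adjusted p = 0.812, limma). H2-Eb1, the beta chain of H2-E, had 8.18, 8.58 and 8.51 in Mef2c-deficient libraries and 9.01, 9.01 and 8.44 in controls. It was below control on arrays 1 and 2 and about level on array 3, with a mean log2 ratio of -0.40 ± 0.45 (adjusted p = 0.579, limma; 95% interval -1.02 to 0.23). With array 2 turned, the means were 0.36 for H2-Ab1, 0.22 for H2-Aa and -0.11 for H2-Eb1. Leaving out 1 array at a time gave means from -0.92 to -0.10 for H2-Ab1, -0.48 to 0.036 for H2-Aa and -0.63 to -0.18 for H2-Eb1.

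Several probes of H2-Ab1 allowed a check within the gene. Its 4 probes had mean log2 ratios of -0.49, -0.45, -0.66 and -0.48, all below 0. On array 2 all 4 probes were below 0, between -1.28 and -1.02. On array 1 they split into 2 below 0 and 2 above it, from -0.57 to 0.83, and on array 3 they ran from -1.27 to 0.36. One probe was spotted many times: over 9, 9 and 8 kept spots on arrays 1, 2 and 3 its log2 ratio was -0.26, -1.02 and -0.08, with an SD between spots of 0.034, 0.061 and 0.060. The spread between probes of H2-Ab1 on arrays 1 and 3 was therefore far larger than the spread between spots of 1 probe. By the files' coordinates, whose build is not named, the tested probe lay 4336 bases, and the many-spot probe 2665 bases, downstream of the probe with a mean of -0.66.

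**Figure D2:**
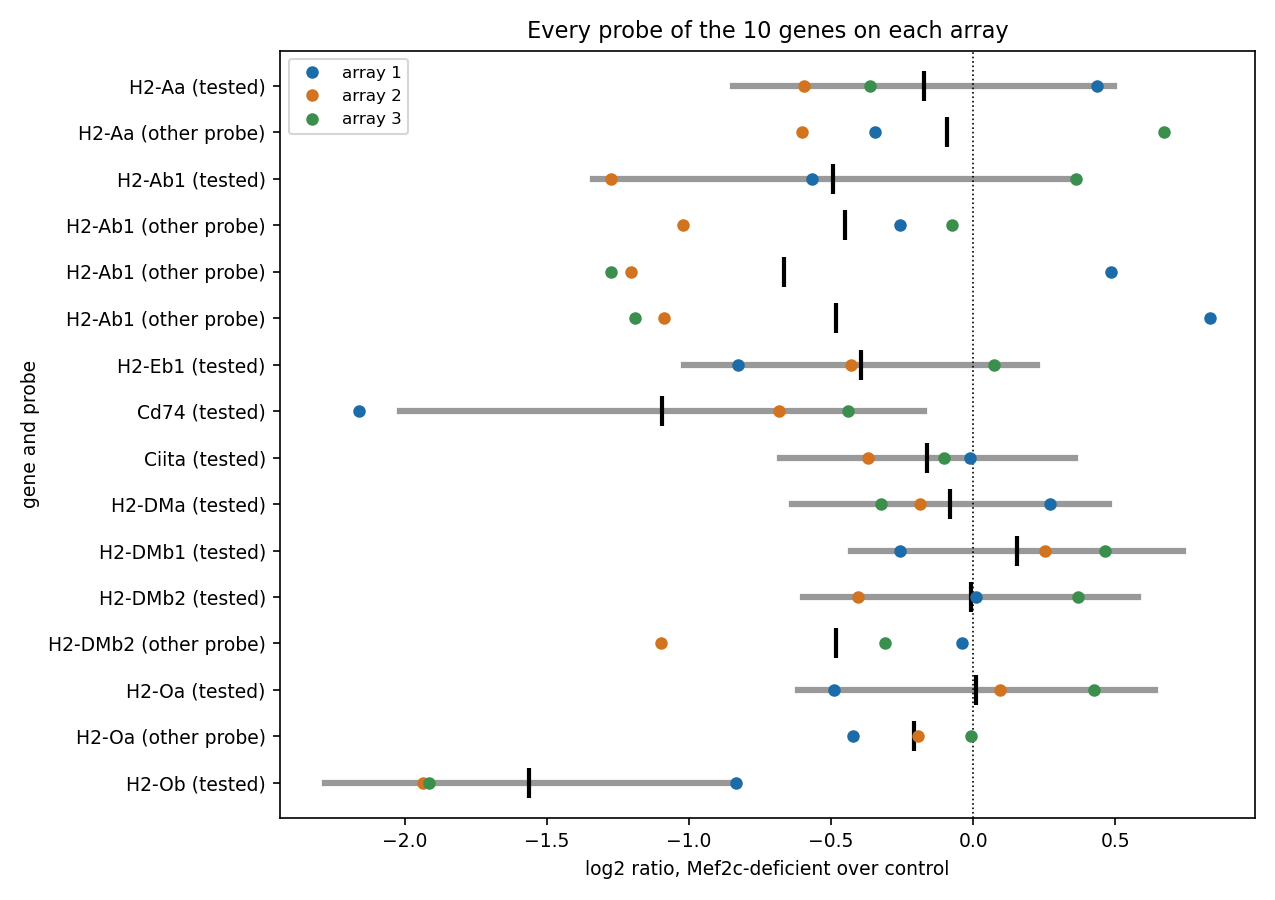
Log2 ratio of Mef2c-deficient over control (horizontal axis) for all 16 probes of the 10 genes, with 1 point per array, a vertical mark at the mean of 3 arrays and a grey bar for limma's moderated 95% interval of the tested probe of each gene. The H2-Ob and Cd74 bars end below 0, at -0.84 and -0.17, while the 4 H2-Ab1 probes agree on array 2 and spread on arrays 1 and 3.

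In all, 14 of the 16 probes had a mean below 0, where 51.1% of 32867 kept probes did, and 6 were below 0 on every array, where 18% did. After turning array 2, 6 of the 16 had a mean below 0 (52.1% of kept probes) and 0 were below 0 on every array (10.6%). The second H2-Aa probe had log2 ratios of -0.35, -0.60 and 0.67, so it ran opposite to the tested H2-Aa probe on arrays 1 and 3 and gave a similar mean of -0.09. On array 2 both H2-Aa probes were at -0.60.

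The H2-DM chains, which load peptide onto class II molecules, were close to level. H2-DMa, the alpha chain, had log2 signals of 14.33, 14.05 and 14.31 in Mef2c-deficient libraries and 14.07, 14.24 and 14.64 in controls. The groups overlapped, with a mean log2 ratio of -0.08 ± 0.31 (SD, n = 3; adjusted p = 0.903 by limma) and a 95% interval from -0.64 to 0.48. H2-DMb1, a beta chain, had 10.66, 10.53 and 11.05 in Mef2c-deficient libraries and 10.92, 10.28 and 10.58 in controls, with a mean log2 ratio of 0.15 ± 0.37 (95% interval -0.43 to 0.74). H2-DMb2, the other beta chain, had 11.29, 11.08 and 11.51 in Mef2c-deficient libraries and 11.28, 11.49 and 11.14 in controls, with a mean of -0.01 ± 0.39 (95% interval -0.60 to 0.58). Under a turned array 2, the means were 0.044 for H2-DMa, -0.015 for H2-DMb1 and 0.26 for H2-DMb2.

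The tested H2-DMb2 probe also lists an accession of H2-DMb1, a near-identical neighbour, so these beta chain values are uncertain as to the gene. The other H2-DMb2 probe gave -0.04, -1.10 and -0.31, with a mean of -0.48 ± 0.55. The log2 ratio of H2-DMa minus that of H2-DMb1 was 0.52, -0.44 and -0.79 on arrays 1, 2 and 3 (mean -0.23 ± 0.68), with no common sign.

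Ciita, the coactivator on which class II transcription depends, had log2 signals of 9.0, 9.41 and 8.95 in Mef2c-deficient libraries. The control libraries had 9.01, 9.78 and 9.06. The libraries of array 2 were the highest in both groups, and each mutant library was under the control of its own array. The log2 ratios were -0.01, -0.37 and -0.10, with a mean of -0.16 ± 0.19 (SD, n = 3; adjusted p = 0.776 by limma) and a 95% interval from -0.68 to 0.36. That interval leaves out a change of 1 log2 unit in either direction. So do the intervals of H2-Aa (-0.84 to 0.49), H2-DMa, H2-DMb1, H2-DMb2 and H2-Oa. These intervals cover only the spread between these libraries, as labelled. Once array 2 was turned, the mean was 0.085, and leaving out 1 array at a time gave means from -0.24 to -0.057.

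The DNA-binding partners and inducers of Ciita were read from a list of 13 genes, all measured. At an unadjusted p under 0.05 by limma, 1 was lower in the mutant and 0 were higher, where 5.32% of all genes were lower and 4.81% higher. A mean below 0 was found for 9 of 13, against 54.6% of all genes, with a list median of -0.22. The 1 gene was Irf2, an interferon regulatory factor, at -0.62 ± 0.37 (SD, n = 3; unadjusted p = 0.0398, adjusted p = 0.479). The next by size were Irf1 at -0.53 ± 0.39, Irf8 at 0.49 ± 0.66 and the NF-Y subunit Nfyc at 0.45 ± 1.46. The RFX subunit genes Rfx5, Rfxank and Rfxap, which bind the X box as a complex, had means of -0.35, -0.34 and -0.18, none past that threshold. Under a turned array 2, the list median was -0.11, Irf2 was at -0.48 (unadjusted p = 0.168) and Rfx5, at -0.66, was the 1 gene past the threshold (unadjusted p = 0.0354). All 3 listed repressors of Ciita (Prdm1, Zbtb32 and Fezf1) were on the array and 0 of 3 passed the filter on dim probes.

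Of 10 genes that process antigen or turn class II molecules over, all measured, 0 were lower and 1 was higher in the mutant at an unadjusted p under 0.05 by limma, and the list median was 0.05. The shares of all genes were 5.32% lower and 4.81% higher. Ifi30, the lysosomal thiol reductase that unfolds antigens, had log2 signals of 13.48, 13.29 and 13.69 in Mef2c-deficient libraries and 12.72, 12.81 and 12.36 in controls. Every mutant library was above every control, and the same held for the protease gene Ctsd. The share of all genes with this order was not computed. For Lgmn every mutant library was below every control, an order that 11.8% of all genes measured on 3 arrays had. The mean log2 ratio of Ifi30 was 0.86 ± 0.43 (SD, n = 3; unadjusted p = 0.0141, adjusted p = 0.463 by limma). The next by size were Marchf1, the ubiquitin ligase that sends class II molecules to degradation, at -0.64 ± 0.54, the protease genes Ctsd at 0.53 ± 0.24 and Lgmn at -0.49 ± 0.10. Ctss and Ctsl, the proteases known to cut the invariant chain, were at 0.23 ± 0.51 and -0.18 ± 0.09. With array 2 turned, 0 of the 10 were past the threshold, and Ifi30 was at 0.54 ± 0.93 (unadjusted p = 0.216, limma).

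Genes that share the H2 locus with the class II genes were measured for 10 of 11 listed. At an unadjusted p under 0.05 by limma 1 was lower and 0 were higher, against 5.32% and 4.81% of all genes. Their median log2 ratio was -0.07. The 1 gene was Tap2, a subunit of the peptide transporter for class I molecules, at -0.73 ± 0.35 (SD, n = 3; unadjusted p = 0.0209, adjusted p = 0.463). Slc39a7, a zinc transporter gene, was at 0.32 ± 0.52, Col11a2 at -0.30 ± 0.53 and the immunoproteasome gene Psmb8 at -0.15 ± 0.26. After turning array 2, 0 of the 10 were past the threshold, their median was 0.11 and Tap2 was at -0.14 ± 0.95. Of 4 further class II genes, H2-Eb2 alone was measured, with -0.27 ± 0.23 (adjusted p = 0.640, limma). H2-Ea, the alpha chain of H2-E, was on the array and did not pass the filter on dim probes, and probes named H2-Pa and H2-Pb were not found.

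The class I genes, which present peptides from inside the cell and are also induced by interferon, had a median log2 ratio of -0.63 over 6 measured of 7 listed, and by array -0.53, -0.62 and -0.69. At an unadjusted p under 0.05 by limma, 4 of 6 were lower, where 5.32% of all genes were, 0 were higher, and 0 had an adjusted p under 0.05. The 4 were H2-T23 at -0.87 ± 0.09 (SD, n = 3), H2-Q7 at -0.82 ± 0.20, H2-K1 at -0.71 ± 0.39 and H2-D1 at -0.55 ± 0.16. Under a turned array 2, 0 of 6 were past the threshold, the list median was -0.25, and H2-T23 was at -0.23 ± 1.03 and H2-Q7 at -0.26 ± 0.97. Class I genes share long stretches of sequence, so probes of 1 gene may read others. Whether the class II and class I lists differ was not tested.

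**Figure D3:**
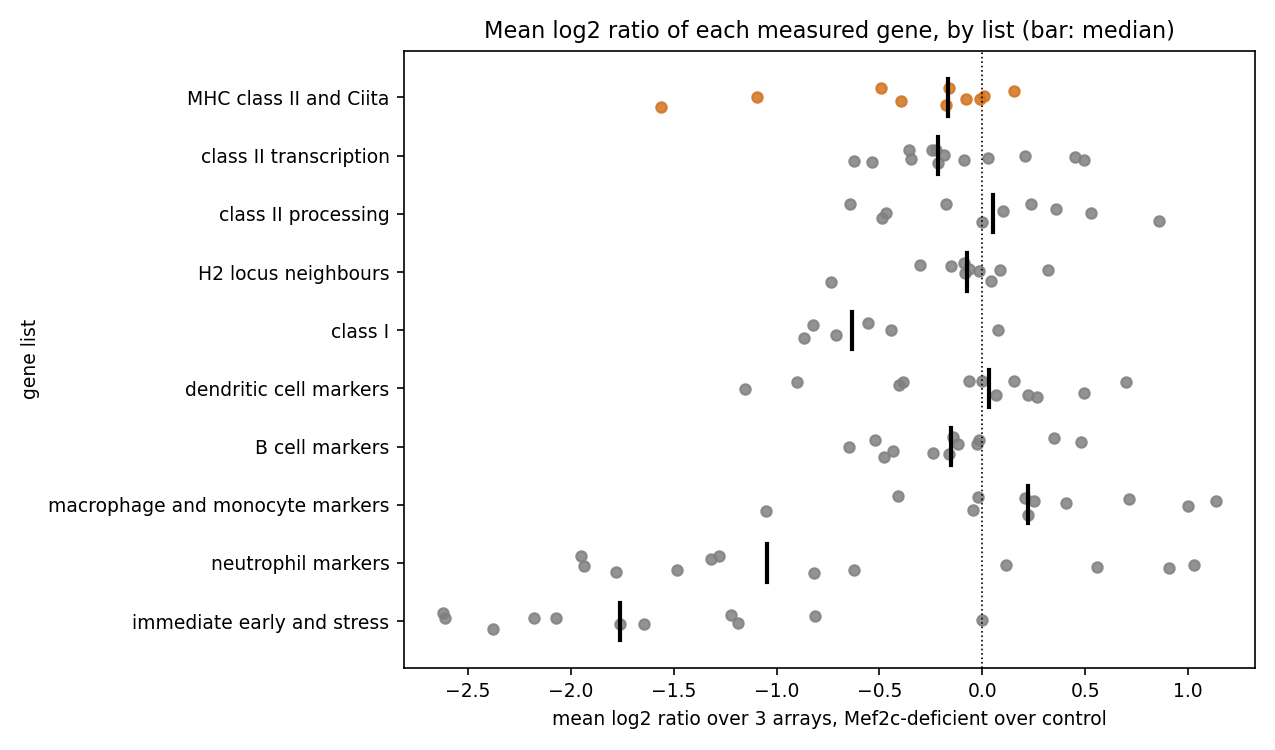
Mean log2 ratio over 3 arrays of Mef2c-deficient over control (horizontal axis) for each measured gene of the class II group (orange) and of 9 other lists (grey), with a black bar at each list's median. The class II group has its median at -0.17 with 2 genes far below, the class I list has its median at -0.63, and the immediate early list has its median at -1.76, which without array 1 is -0.18 (class I without array 1: -0.66).

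Markers of the cell types that express most class II were read in the same libraries. Dendritic cell markers were measured for 12 of 14 genes, with a mean log2 signal of 9.90, 9.72 and 10.12 in Mef2c-deficient libraries and 10.33, 9.76 and 9.91 in controls. At an unadjusted p under 0.05 by limma, Flt3, also a marker of early lymphoid progenitors, was lower at -1.15 ± 0.12 (SD, n = 3), and Itgax, which encodes CD11c, was higher at 0.70 ± 0.49. That was 1 of 12 each way, where 5.32% of all genes were lower and 4.81% higher. Clec9a was above background in 1 of 3 mutant and 2 of 3 control libraries, and Siglech and Cd209a did not pass the filter. CD11c is not among the lineage antibodies, while B220 and Mac-1, which some dendritic cells carry, are.

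B cell markers were measured for 12 of 14 genes, with a mean log2 signal of 10.12, 9.97 and 10.28 in Mef2c-deficient libraries and 10.48, 10.28 and 10.10 in controls. Cd72 alone was lower at an unadjusted p under 0.05, at -0.65 ± 0.32 (SD, n = 3; unadjusted p = 0.0303, limma), and 0 were higher. Among all genes 5.32% were lower and 4.81% higher. Vpreb1, part of the surrogate light chain, was at -0.52 ± 0.90, and Cd79b, a chain of the B cell receptor, at 0.48 ± 0.58. Macrophage and monocyte markers, measured for 11 of 13 genes, had a mean log2 signal of 10.46, 10.16 and 10.62 in Mef2c-deficient libraries and 10.16, 10.07 and 10.36 in controls. At an unadjusted p under 0.05 by limma, Fcgr1 (1.14 ± 0.21), Adgre1 (1.0 ± 0.20) and Ccr2 (0.71 ± 0.48) were higher, and Itgam, which encodes the gated Mac-1 antigen, was lower at -1.05 ± 0.23. That was 3 of 11 higher and 1 of 11 lower, against the same shares of all genes as above. Once array 2 was turned, 0 dendritic cell and 0 B cell markers were past the threshold, with Flt3 at -0.32 ± 1.37, and of the macrophage and monocyte markers 1 was, C1qc, which was higher at 0.71. The part of these cells in the class II values was not tested.

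The order of the libraries differed between the members. Of the 10 genes, 4 were highest in control library 2 (H2-Aa, H2-Eb1, Ciita and H2-Ob), 2 in control library 1 (Cd74 and H2-Ab1), 1 in control library 3 (H2-DMa) and 3 in Mef2c-deficient library 3 (H2-DMb1, H2-DMb2 and H2-Oa). Mef2c-deficient libraries held the lowest value of 9 of the 10 genes, and control library 2 held it for H2-DMb1. With array 2 turned, the highest value lay in a mutant library for 7 of the 10 genes and the lowest value also for 7. The same tally over all genes was not made, so these counts describe the members only and do not set them apart from other genes.

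**Figure D4:**
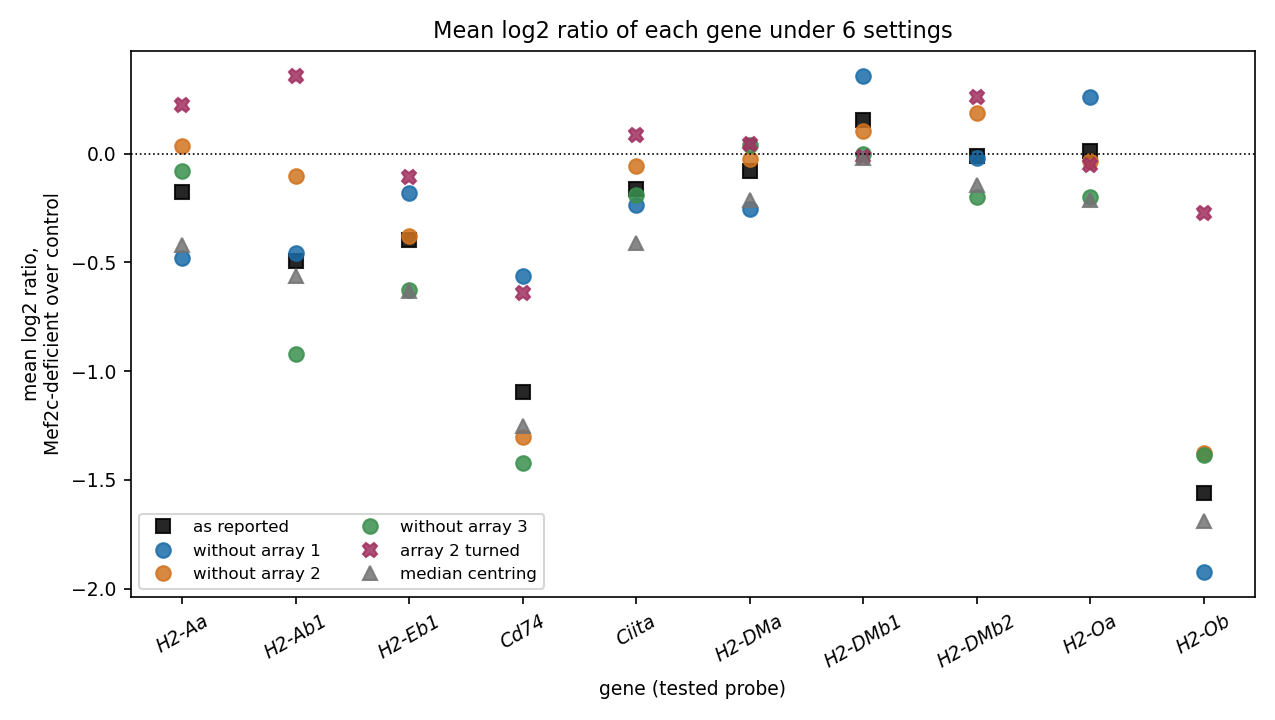
Mean log2 ratio of Mef2c-deficient over control (vertical axis) for the tested probe of each of the 10 genes under 6 settings: as reported, without array 1, 2 or 3, with the sign of array 2 turned, and with median centring in place of loess. H2-Ob, Cd74 and H2-Eb1 stay below 0 under all 6, and the other 7 genes fall on both sides of 0, Ciita and H2-Ab1 by the turned setting alone.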

How the data were processed

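The members and lists were chosen with earlier results of these data known. Per the file headers, Feature Extraction 9.5.1.1 made the deposited scanner files, with a linear intensity per spot and channel and the log10 of Cy5 over Cy3. In a separate table the authors deposited log2 ratios by spot. The submitters' processing notes name limma without a version, and the sources used here do not give the normalization of these log2 ratios. Against the scanner's log10 ratio the deposited columns correlated at -0.947, 0.935 and -0.939 on arrays 1, 2 and 3, so the column of array 2 runs opposite to the others although the labels give the same dyes. The deposited columns' medians were -0.01, 0.01 and -0.0025, and each had 201 empty rows. Whether the array or the column was turned is unknown.

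Deposited foreground and background intensities were corrected with limma's normexp (offset 50) and normalized by loess within each array, with control spots at weight 0. Outlier spots were removed (300, 331 and 252). Ratios are log2 of mutant over control. Levels of a library were also scaled between arrays by Aquantile, and no probe's level was set against another's. Probes were kept where a channel passed the background test on 2 or more arrays, 32897 in all, and a gene took its brightest probe. Current symbols came from RefSeq by accession (22951 probes), symbol (6659) or synonym (3109), and 8455 kept the file's name. An intercept fit (lmFit and eBayes of limma 3.58.1, R 4.3.3) tested ratios against 0, with Benjamini-Hochberg adjustment over 22213 genes, so each array's pair is the replicate block. The fit was tested on simulated ratios with independent normal noise and known shifts. They held no dye effect and no outlying library, so that test does not cover these features. The file headers put all arrays on 1 slide, and no slide block could be fitted. The number of arrays, 3, limits the precision. Named genes were all 10 members with every probe, the 5 genes most like Cd74, and up to 4 genes of each list: those at an unadjusted p under 0.05 first, then the largest mean ratios. One gene that this rule names is not reported here. Other genes of the lists, such as Rfx5, Rfxank, Rfxap, Ctss, Ctsl and C1qc, were named after their values were seen. Lists of T and NK cell markers (9 of 11 measured, median log2 ratio -0.43) and erythroid markers (6 of 7, 0.09) were also read. At an unadjusted p under 0.05 by limma, 1 of 9 and 2 of 6 were lower, against 5.32% of all genes. In both lists 0 were higher, against 4.81% of all genes. Means were below 0 for 8 of 9 and 2 of 6, against 54.6% of all genes. With array 2 turned, 0 genes of either list were past the threshold. Alternatives covered background correction, normalization, the filter, the probe rule, each array left out, array 2 turned, unpaired channels and the deposited ratios.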

Additional observations from a re-analysis of the deposited data

How the results depend on the processing

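Over 12 alternatives, 0 genes had an adjusted p under 0.05 by limma in any, and H2-Ob, Cd74 and H2-Eb1 kept a mean log2 ratio below 0 in all. The adjusted p ranged from 0.291 to 1 for H2-Ob and from 0.319 to 1 for Cd74. With array 2 turned, genes at an unadjusted p under 0.05 fell to 644, against 2251 as reported, members at that threshold to 0, against 2, the members' median was 0.015, and the means were 0.085 for Ciita, 0.22 for H2-Aa, 0.36 for H2-Ab1, 0.044 for H2-DMa, -0.015 for H2-DMb1, 0.26 for H2-DMb2 and -0.053 for H2-Oa. With each array left out in turn, genes at that threshold numbered 1297 to 2732, members at it 1 to 3, and the members' median -0.25 to -0.04. The means then ranged from -0.48 to 0.036 for H2-Aa, -0.26 to 0.040 for H2-DMa, -0.0016 to 0.36 for H2-DMb1, -0.20 to 0.19 for H2-DMb2, -0.20 to 0.26 for H2-Oa, -0.92 to -0.10 for H2-Ab1, -0.63 to -0.18 for H2-Eb1, -0.24 to -0.057 for Ciita, -1.42 to -0.56 for Cd74 and -1.92 to -1.37 for H2-Ob. Median centring gave a median of -0.18 over all genes, against -0.04 with loess, and of -0.42 over the members, put all 10 members below 0 (H2-DMb1 -0.018, H2-Oa -0.22), and split the genes at that threshold into 551 higher and 2321 lower, against 1069 and 1182 with loess. H2-DMb2 was at 0.061 with the scanner's processed signals, and H2-Oa at -0.10 with the mean of its probes. With single channels and no replicate block for the array pairing, members at that threshold numbered 1, H2-Ob, and Cd74 had an unadjusted p of 0.0501 by limma. The cause of these shifts was not tested.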

Other observations

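In the authors' deposited table, with array 2 turned back to the labelled direction, H2-Ob had log2 ratios of -0.84, -1.96 and -1.93 and Cd74 had -2.18, -0.69 and -0.46. In scanner units the members' probes read 174 to 18101 in mutant libraries and 384 to 36975 in control libraries, where the median negative control spot read 36.8 to 37.4 in Cy3 and 54.6 to 57.3 in Cy5. These are intensities before normalization, so the ranges of the 2 dyes are not on a common scale and do not compare the groups.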
